A study of Mus musculus with 6 samples.

Results

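This report describes 10 genes of vascular endothelium in RNA sequencing libraries from the sensory epithelia of the newborn mouse cochlea and vestibule. The genes are Pecam1, Cdh5, Kdr, Flt1, Tek, Tie1, Cldn5, Emcn, Esam and Vwf. They are genes known for endothelial cells, listed by name with earlier results of these data known, and were found through their symbols among the 39179 genes of the count files. All 10 had a row and all 10 were among the 14723 genes tested, those that reached 1 CPM (a count divided by the library's counts on genes in units of 1000000) in at least 3 libraries. Of the sense organs in the inner ear, the cochlea serves hearing and the vestibule serves balance. The study compared 3 libraries of each organ at postnatal day 0. All mice were of the C57Bl/6J strain, males and females were pooled, and no mutation or treatment was involved. Each library is described as RNA from sensory epithelia of at least 20 cochleae or vestibules. The study's methods name 1 set of dissected ears, so the 3 libraries of an organ may share a pool of RNA, and the p-values below measure only the spread between these libraries, which may be technical.

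The endothelium is the sheet of cells that lines blood vessels. Its growth is driven by vascular endothelial growth factor (VEGF) acting on receptor tyrosine kinases, and its vessels are then stabilised by angiopoietins, which act on the TIE receptors. Neighbouring endothelial cells are held together by adherens and tight junctions, and their lumenal face carries mucins. In the inner ear, vessels lie in the connective tissue under the sensory epithelia. In bulk RNA, fewer cells of a type and less RNA per cell cannot be told apart.

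Promoter sequences were at hand for 6 of the 10 genes, from the RefSeq annotation of GRCm38.p6. Those of 3 genes are shown, because Kdr and Emcn stood farthest apart in the comparison and Flt1 encodes the sister receptor of Kdr. Each is the 250 bases before the annotated start of transcription, 5′ to 3′ on the strand of the gene: chr5:75978456-75978705 on the minus strand for Kdr, chr5:147726012-147726261 on the minus strand for Flt1 and chr3:137340828-137341077 on the plus strand for Emcn. Capitals mark the letters GGAA, or TTCC where they lie on the other strand, which are the core of the motif bound by ETS factors, a family known to act at endothelial promoters.
Kdr: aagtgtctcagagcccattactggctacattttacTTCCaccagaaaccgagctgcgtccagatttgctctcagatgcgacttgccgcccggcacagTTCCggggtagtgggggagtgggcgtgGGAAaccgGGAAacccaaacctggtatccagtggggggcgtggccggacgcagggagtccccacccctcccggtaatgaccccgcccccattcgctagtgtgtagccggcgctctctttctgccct
Flt1: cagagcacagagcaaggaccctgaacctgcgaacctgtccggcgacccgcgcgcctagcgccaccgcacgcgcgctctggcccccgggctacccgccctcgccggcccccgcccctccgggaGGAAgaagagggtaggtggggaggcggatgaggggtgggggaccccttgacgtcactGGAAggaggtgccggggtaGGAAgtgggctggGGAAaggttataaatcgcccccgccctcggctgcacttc
Emcn: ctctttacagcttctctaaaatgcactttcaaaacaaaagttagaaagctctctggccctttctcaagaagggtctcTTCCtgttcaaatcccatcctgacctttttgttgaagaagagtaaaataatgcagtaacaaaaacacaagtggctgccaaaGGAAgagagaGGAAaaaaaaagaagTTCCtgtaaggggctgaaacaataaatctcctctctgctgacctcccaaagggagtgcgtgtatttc
The core was found 4 times in each of the 3 windows. It is common: 93.4% of 32851 promoters of this length held it at least once and 33.4% held it at least 4 times. Tie1 had 7 matches, a number reached by 3.82% of promoters, Tek had 2, and Cldn5 had none. The longer letters CCGGAA, searched on both strands and overlapping the core, occurred once in the Kdr window, in no other of the 6, and in 12.0% of all promoters. The letters AGATAA, a form of the GATA motif, occurred in none of the 6 windows and in 9.99% of all promoters. GC content was 61.6% for Kdr, 70.4% for Flt1 and 40.8% for Emcn, against a median of 52.4% over all promoters. These are matches of letters and describe the sequence alone.

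The libraries held 24464483 to 29225105 counts on genes in the cochlea and 25476572 to 33664793 in the vestibule, so that 1 CPM stands for 24.5 to 33.7 counts. Pairs of libraries of 1 organ differed beyond sampling noise, with a chi-square per degree of freedom of 26.6 to 92.7, against 147 to 283 between the organs. Over all genes the median log2 fold change was 0.00 after TMM scaling and 0.13 with scaling by library size alone. This choice moved the share of calls that were higher in the vestibule from 57.6% to 68.8%. Changes are given as vestibule minus cochlea on the log2 scale, with the standard error and an adjusted p, which is that of edgeR's quasi-likelihood test, adjusted by Benjamini-Hochberg over all 14723 genes, and "called" means an adjusted p under 0.05.

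RNA of all 10 genes was detected in every library, and most of the genes were higher in the vestibule. Of the 10 genes, 8 were called higher in the vestibule, beside 15.8% of all genes tested. Emcn was called higher in the cochlea, beside 11.6% of all genes, and Tek was not called. The 3 vestibular libraries lay above all 3 cochlear ones for 9 genes, beside 27.5% of all genes, and the cochlear libraries lay above for Emcn, beside 14.3%. The median log2 fold change of the 10 genes was 1.26. The lowest value of any of them in any library was 4.82 CPM, which stands for 118 counts of Vwf, so counting error was small beside the spread between libraries. In GENCODE vM21 no exon of the 10 genes overlaps an exon of another gene.

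**Figure D1:**
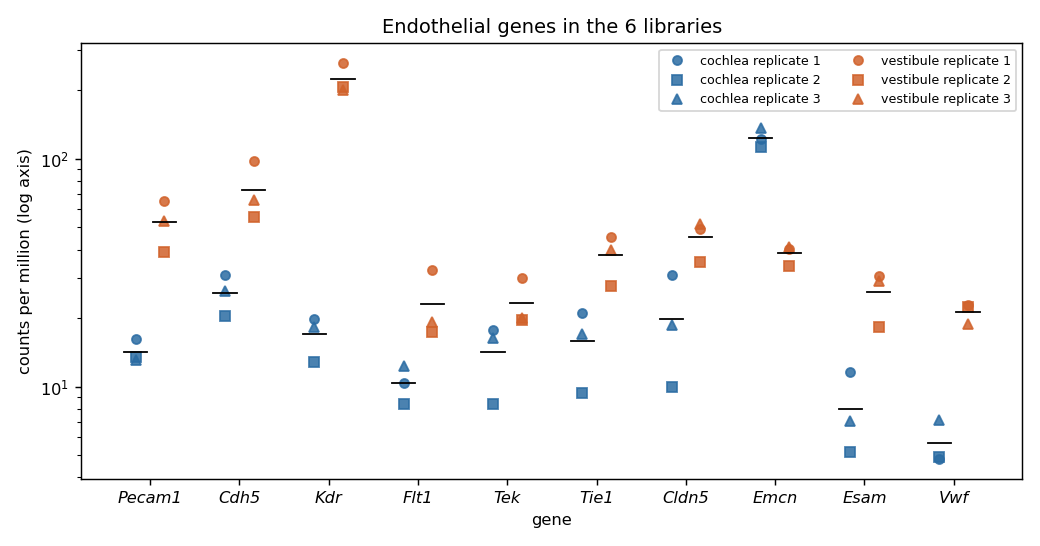
CPM on a log axis for the 10 endothelial genes, with 1 point per library (n = 3 per tissue, cochlea in blue and vestibule in orange, marker shape by replicate) and a bar at each mean. The vestibular points lie above the cochlear ones for 9 genes and below them for Emcn, and the gap is widest for Kdr.

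Kdr and Flt1 encode the receptors of VEGF-A. Kdr (ENSMUSG00000062960, chr5:75932827-75978458, minus strand, GRCm38 as in all coordinates below) encodes VEGFR2, the main signalling receptor for growth of vessels. Its level was 19.9, 12.9 and 18.2 CPM in cochlea replicates 1 to 3 and 263, 207 and 202 CPM in vestibule replicates 1 to 3. The groups did not come near each other, and the lowest vestibular library was far above the highest cochlear one. The means were 16.98 ± 3.65 CPM (SD, n = 3) and 224 ± 34.1 CPM (SD, n = 3), and the log2 fold change was 3.60 ± 0.18 (SE, edgeR, adjusted p = 5.56e-06), a 12.2-fold higher level in the vestibule. Only 140 of the 14723 genes tested (0.951%) had a higher log2 fold change. Flt1 (ENSMUSG00000029648, chr5:147561604-147726011, minus strand) encodes VEGFR1, which binds VEGF-A tightly but signals weakly and can act as a trap for the ligand. It was measured at 10.4, 8.44 and 12.4 CPM in the cochlea and at 32.5, 17.4 and 19.2 CPM in the vestibule. Vestibule replicate 1 stood above the rest of its group, and the groups did not overlap. The log2 fold change was 1.02 ± 0.24 (SE, edgeR, adjusted p = 0.0136), a 2.03-fold higher level. Without cochlea replicate 2 it was 0.91 and the call was lost (edgeR, adjusted p = 0.0663).

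Tek and Tie1 encode the TIE receptors. Tek (ENSMUSG00000006386, chr4:94739289-94874976, plus strand) encodes TIE2, the receptor of the angiopoietins. Its level was 17.7, 8.37 and 16.3 CPM in the cochlea and 30.1, 19.7 and 20.1 CPM in the vestibule. The lowest vestibular value was just above the highest cochlear one, and the gene was not called, with a log2 fold change of 0.61 ± 0.27 (SE, edgeR, adjusted p = 0.13). It passed the threshold under no alternative, where the adjusted p of edgeR or DESeq2 ran from 0.0887 to 0.353. Tie1 (ENSMUSG00000033191, chr4:118471191-118490061, minus strand) encodes TIE1, which pairs with TIE2 and modulates its signalling. It was measured at 21.0, 9.37 and 17.04 CPM in the cochlea and at 45.3, 27.8 and 40.0 CPM in the vestibule. Replicate 2 was the lowest library of each organ, and the groups did not overlap. The log2 fold change was 1.15 ± 0.28 (SE, edgeR, adjusted p = 0.0165), and without vestibule replicate 1 the call was lost at 1.05 (edgeR, adjusted p = 0.0534).

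The junction genes were higher in the vestibule. Pecam1 (ENSMUSG00000020717, chr11:106654217-106750628, minus strand) encodes CD31, an adhesion molecule of endothelial contacts that platelets and leukocytes also carry. Its level was 16.2, 13.4 and 13.1 CPM in the cochlea and 65.4, 39.2 and 53.5 CPM in the vestibule. The cochlear libraries were close together and the vestibular ones more spread, with no overlap, and the log2 fold change was 1.77 ± 0.20 (SE, edgeR, adjusted p = 0.000269). Cdh5 (ENSMUSG00000031871, chr8:104101625-104144511, plus strand) encodes VE-cadherin, the adhesion protein of endothelial adherens junctions. It was measured at 30.8, 20.4 and 26.2 CPM in the cochlea and at 97.8, 55.4 and 65.8 CPM in the vestibule. The groups did not overlap, and the log2 fold change was 1.38 ± 0.22 (SE, edgeR, adjusted p = 0.00167). Esam (ENSMUSG00000001946, chr9:37528078-37538319, plus strand) encodes an adhesion molecule of endothelial tight junctions that is also found on platelets. Its level was 11.6, 5.17 and 7.05 CPM in the cochlea and 30.6, 18.3 and 29.1 CPM in the vestibule. The groups did not overlap, and the log2 fold change was 1.61 ± 0.30 (SE, edgeR, adjusted p = 0.0046).

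Cldn5 (ENSMUSG00000041378, chr16:18776847-18778262, plus strand) encodes claudin-5, the tight junction protein that seals endothelium against small molecules. It was measured at 30.9, 10.0 and 18.7 CPM in the cochlea and at 49.3, 35.1 and 51.6 CPM in the vestibule. The cochlear libraries spread over a 3-fold range and still lay below the vestibular ones. The log2 fold change was 1.09 ± 0.35 (SE, edgeR, adjusted p = 0.0463), the least certain of the 8 calls. It was kept without cochlea replicate 1, at 1.54 (edgeR, adjusted p = 0.00818). It was lost without each of the other 5 libraries, with an adjusted p of edgeR of 0.102 without cochlea replicate 2, 0.0807 without cochlea replicate 3, 0.106 without vestibule replicate 1, 0.0523 without vestibule replicate 2 and 0.102 without vestibule replicate 3.

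The remaining genes encode a stored clotting protein and a surface mucin. Vwf (ENSMUSG00000001930, chr6:125546774-125686679, plus strand) encodes von Willebrand factor, which endothelial cells and platelets store and release. Its level was 4.82, 4.93 and 7.15 CPM in the cochlea and 22.8, 22.3 and 18.8 CPM in the vestibule. The vestibular libraries were close together and all lay above the cochlear ones, with a log2 fold change of 1.80 ± 0.19 (SE, edgeR, adjusted p = 0.000195). Emcn (ENSMUSG00000054690, chr3:137341067-137432185, plus strand) encodes endomucin, a sialomucin known from capillary and venous endothelium. It was measured at 122, 113 and 137 CPM in the cochlea and at 40.3, 34.0 and 41.0 CPM in the vestibule. The order of the organs was the opposite of that of the other 9 genes, and replicates were close together in both. The means were 124 ± 12.4 CPM (SD, n = 3) and 38.5 ± 3.85 CPM (SD, n = 3), and the log2 fold change was -1.80 ± 0.14 (SE, edgeR, adjusted p = 3.72e-05), a 3.49-fold higher level in the cochlea. Of the genes tested, 386 (2.62%) had a lower log2 fold change.

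**Figure D2:**
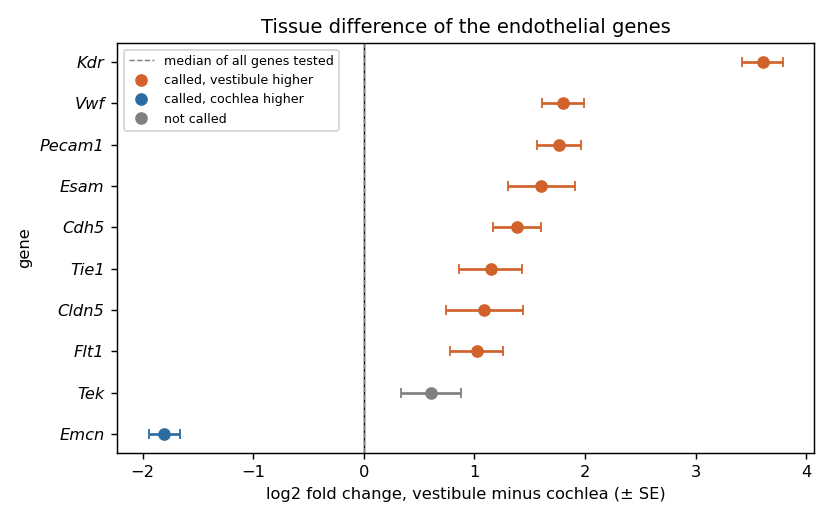
Log2 fold change, vestibule minus cochlea, of the 10 endothelial genes from edgeR (n = 3 per tissue), with bars of 1 standard error and colour by call. Kdr at 3.60 and Emcn at -1.80 stand at the ends, Tek at 0.61 is not called, and the dashed line marks the median of all genes tested, 0.00.

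The make-up of the counts on the 10 genes differed between the organs, as did their sum. Which cells the counts of Kdr and Emcn came from was not tested. The 10 genes summed to 285, 206 and 274 CPM in the cochlea and to 677, 477 and 541 CPM in the vestibule, a ratio of the means of 2.22. Kdr alone moved this ratio by over 1.5 times, since it was 1.43 without that gene. Without both Kdr and Emcn, the other 8 genes summed to 114 ± 31.9 CPM (SD, n = 3) in the cochlea and 302 ± 69.4 CPM (SD, n = 3) in the vestibule, a ratio of 2.66. Kdr held 6.26% to 6.97% of the counts on the 10 genes in the cochlear libraries and 37.3% to 43.5% in the vestibular ones. Emcn held 42.7% to 54.8% in the cochlea and 5.95% to 7.59% in the vestibule. The largest share of the counts was thus that of Emcn in each cochlear library and that of Kdr in each vestibular one. Counts grow with the length of a transcript, so a share is to be compared between libraries and not between genes.

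Ratios within a library do not depend on its scaling. There were 6.13, 8.76 and 7.55 counts of Emcn per count of Kdr in the cochlear libraries and 0.153, 0.164 and 0.203 in the vestibular ones. Per count of Flt1 there were 1.91, 1.53 and 1.47 counts of Kdr in cochlear libraries, against 8.10, 11.9 and 10.5 in vestibular ones, so the receptors of VEGF-A changed unequally. Per Pecam1 count, Emcn ran from 7.50 to 10.5 in the cochlea and from 0.617 to 0.869 in the vestibule, and Kdr from 0.959 to 1.39 and from 3.77 to 5.29. For Tie1 the same ratio was 0.698 to 1.30 in the cochlea and 0.692 to 0.746 in the vestibule, ranges that overlap. Cldn5, at 0.744 to 1.91 and 0.754 to 0.963, and Esam, at 0.385 to 0.715 and 0.467 to 0.543, overlapped too. So did Vwf, at 0.297 to 0.544 and 0.349 to 0.570. The ranges did not overlap and were lower in the vestibule for Cdh5, at 1.52 to 1.99 and 1.23 to 1.50. The same held for Flt1, at 0.628 to 0.943 and 0.358 to 0.497, and for Tek, at 0.623 to 1.24 and 0.375 to 0.503.

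**Figure D3:**
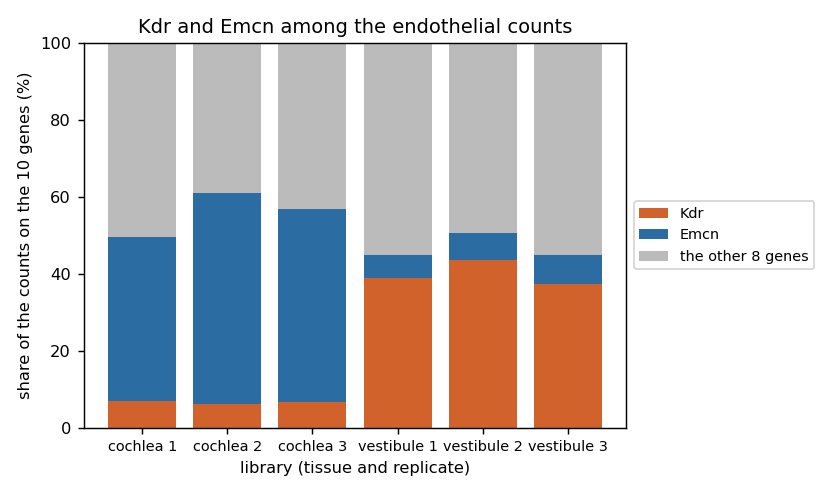
Share, in percent, of the counts on the 10 endothelial genes that fell on Kdr, on Emcn and on the other 8 genes, with 1 bar per library. Emcn takes 42.7% to 54.8% of each cochlear bar and Kdr takes 37.3% to 43.5% of each vestibular bar.

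Within an organ, most of the 10 genes had their lowest value in the same library. Cochlea replicate 2 was the lowest cochlear library for 8 of them, beside 39.4% of all genes tested, and cochlea replicate 1 the highest for 7, beside 37.0%. Vestibule replicate 1 was the highest vestibular library for 8 genes, beside 48.8% of all genes, and vestibule replicate 2 the lowest for 8, beside 20.2%. Emcn was also lowest in replicate 2 of both organs. The summed level without Kdr and Emcn was 144, 80.1 and 118 CPM in the cochlea and 374, 235 and 298 CPM in the vestibule.

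Levels of different genes were compared on the deposited log2 RPKM, which divides by gene length. In the cochlea the order was Emcn (4.52 ± 0.14; mean log2 RPKM ± SD, n = 3, as for all values here), Cldn5 (3.67 ± 0.82), Cdh5 (2.68 ± 0.30), Tie1 (1.61 ± 0.60), Tek (1.51 ± 0.59), Esam (1.39 ± 0.59), Kdr (1.20 ± 0.33), Pecam1 (1.19 ± 0.17), Flt1 (-0.17 ± 0.28) and Vwf (-1.53 ± 0.32). Only the steps from Cdh5 to Tie1, from Pecam1 to Flt1 and from Flt1 to Vwf were free of overlap between libraries, and among the 5 genes from Tie1 to Pecam1 the ranges of neighbours overlapped, although Tie1 was above Tek, Esam and Kdr within each cochlear library. In the vestibule it was Cldn5 (4.99 ± 0.30), Kdr (4.94 ± 0.21), Cdh5 (4.16 ± 0.42), Esam (3.15 ± 0.41), Pecam1 (3.05 ± 0.37), Tie1 (2.91 ± 0.37), Emcn (2.83 ± 0.15), Tek (2.28 ± 0.35), Flt1 (0.94 ± 0.49) and Vwf (0.41 ± 0.15). There the neighbours Cldn5 and Kdr overlapped, as did those from Esam to Tek, while the steps from Kdr to Cdh5, Cdh5 to Esam, Tek to Flt1 and Flt1 to Vwf were clear. Flt1 and then Vwf were the lowest in both organs, each clear of the gene above it. In the cochlea every library's Emcn value was above every value of Kdr, and in the vestibule every Kdr value was above every value of Emcn.

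The ligands and partners of these receptors did not follow 1 direction. Of 11 such genes, all of them tested, 4 were called higher in the vestibule and 3 in the cochlea, beside 15.8% and 11.6% of all genes, and the median log2 fold change was 0.63. Vegfc, a ligand best known for lymphatic growth that also binds VEGFR2, was at 7.07, 5.38 and 8.35 CPM in the cochlea and 13.9, 14.5 and 13.3 CPM in the vestibule (log2 fold change 0.89 ± 0.19, SE, edgeR, adjusted p = 0.00742). Ptprb, which encodes the endothelial phosphatase VE-PTP that acts on TIE2, was at 4.66, 2.53 and 4.59 CPM against 27.4, 15.9 and 13.2 CPM (2.14 ± 0.31, SE, edgeR, adjusted p = 0.00109). Neither gene's groups overlapped, and both calls held in every alternative. Pgf, which encodes placental growth factor, a ligand of VEGFR1 and not of VEGFR2, was higher in the cochlea, at 6.74, 6.77 and 6.30 CPM against 1.93, 2.41 and 2.08 CPM (-1.75 ± 0.21, SE, edgeR, adjusted p = 0.000366). Vegfd, a relative of Vegfc, was at 2.21, 2.64 and 3.18 CPM in the cochlea and 0.683, 0.896 and 1.33 CPM in the vestibule (-1.58 ± 0.32, SE, edgeR, adjusted p = 0.00666). The cochlear libraries of both genes lay above all vestibular ones.

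Calls of 3 further genes depended on single libraries. Vegfa, the main ligand of VEGFR2, was at 27.7, 31.8 and 34.1 CPM in the cochlea and 73.1, 52.6 and 37.9 CPM in the vestibule, with no overlap and a wide vestibular spread. Its log2 fold change of 0.67 ± 0.21 (SE, edgeR, adjusted p = 0.0404) lost its call without cochlea replicate 1 (edgeR, adjusted p = 0.132), cochlea replicate 2 (0.0984), vestibule replicate 1 (0.118) or vestibule replicate 2 (0.0915). Flt4, which encodes VEGFR3, the receptor of lymphatic endothelium, was at 2.94, 2.88 and 3.70 CPM against 10.7, 5.22 and 6.16 CPM. Its log2 fold change was 1.09 ± 0.28 (SE, edgeR, adjusted p = 0.021), and the call was lost without cochlea replicate 1 (edgeR, adjusted p = 0.0708), cochlea replicate 2 (0.0812) or vestibule replicate 1 (0.0603). Without cochlea replicate 2 or vestibule replicate 1 the list kept 2 calls in the vestibule. Angpt1, the ligand that activates TIE2, was higher in the cochlea at 17.05, 19.4 and 23.1 CPM against 13.9, 13.3 and 12.5 CPM, with a log2 fold change of -0.70 ± 0.16 (SE, edgeR, adjusted p = 0.0098), and lost its call without vestibule replicate 2 (edgeR, adjusted p = 0.0633). All 3 calls were also lost with a replicate block, at an adjusted p of edgeR of 0.13 for Vegfa, 0.063 for Flt4 and 0.0507 for Angpt1.

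The other 4 genes of this list were not called. Angpt2, the context-dependent antagonist of Angpt1, was at 5.89, 3.16 and 2.63 CPM in the cochlea and 9.74, 5.49 and 5.93 CPM in the vestibule, groups that overlap (0.74 ± 0.34, SE, edgeR, adjusted p = 0.141). It passed the threshold without cochlea replicate 1, at 1.14 (edgeR, adjusted p = 0.0371). Vegfb, a ligand of VEGFR1, gave -0.32 ± 0.16 (SE, edgeR, adjusted p = 0.176). The neuropilins are co-receptors of VEGF and of semaphorins on many cell types, and Nrp1 gave 0.63 ± 0.23 (SE, edgeR, adjusted p = 0.0706) and Nrp2 0.40 ± 0.17 (SE, edgeR, adjusted p = 0.112). Nrp1 passed the threshold with no filter on low counts, with DESeq2 and with edgeR's exact test (adjusted p of 0.0364 to 0.0379). Both passed it without cochlea replicate 3, at 0.77 for Nrp1 (edgeR, adjusted p = 0.0439) and 0.55 for Nrp2 (edgeR, adjusted p = 0.0294).

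**Figure D4:**
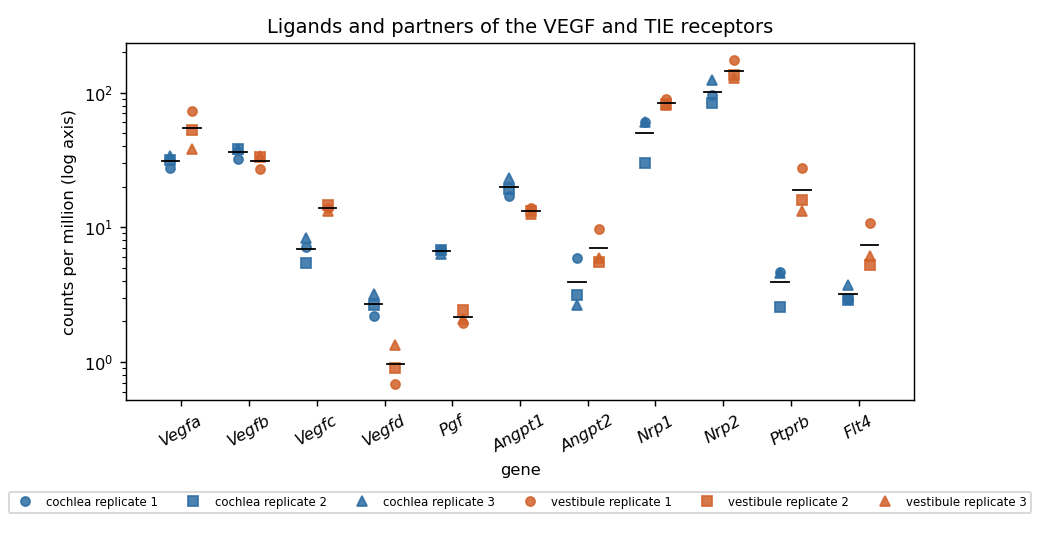
CPM on a log axis for 11 ligands and partners of the VEGF and TIE receptors, with 1 point per library (n = 3 per tissue, marker shape by replicate) and a bar at each mean. Pgf, Vegfd and Angpt1 are higher in the cochlea, and Ptprb and Vegfc are higher in the vestibule.

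A wider list of 33 endothelial genes, of which 32 were tested, went mostly with the 10. Of these, 20 were called higher in the vestibule and 2 in the cochlea, beside 15.8% and 11.6% of all genes tested, the median log2 fold change was 0.86, and the list summed to 300 to 433 CPM in the cochlea and 526 to 694 CPM in the vestibule. Without vestibule replicate 2 the number higher in the vestibule was 13. Some of the calls were also lost with a replicate block, as given below with the other alternatives. Nos3, which encodes endothelial nitric oxide synthase, was at 1.39, 0.590 and 1.54 CPM against 5.29, 4.52 and 3.10 CPM (1.76 ± 0.35, SE, edgeR, adjusted p = 0.00576). Robo4, a guidance receptor of endothelium, gave 1.49 ± 0.28 (SE, edgeR, adjusted p = 0.00447), and Mmrn2, a matrix protein of endothelium, 1.44 ± 0.33 (SE, edgeR, adjusted p = 0.011). The 2 genes called higher in the cochlea were Tal1 and S1pr1, the latter named after its values were seen. Tal1, a transcription factor of blood and endothelial lineages that is also used by some neurons, was at 6.95, 5.90 and 10.4 CPM in the cochlea and 3.51, 1.99 and 2.08 CPM in the vestibule (-1.73 ± 0.29, SE, edgeR, adjusted p = 0.00252). S1pr1, which encodes the receptor of sphingosine 1-phosphate, was at 45.7, 43.3 and 36.2 CPM against 16.4, 13.6 and 20.3 CPM (-1.43 ± 0.20, SE, edgeR, adjusted p = 0.000835). These 2 genes and Emcn were thus the 3 of the 42 tested endothelial genes in the 2 lists that were called in that direction.

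Genes of vessel types were split. Among 11 arterial, venous and Notch genes, 4 were called higher in each organ, beside 15.8% and 11.6% of all genes, and the median log2 fold change was -0.11. Gja5, which encodes connexin 40 of arterial endothelium, was at 0.368, 0.139 and 0.274 CPM in the cochlea and 3.24, 3.78 and 2.32 CPM in the vestibule (3.46 ± 0.36, SE, edgeR, adjusted p = 0.00018). Bmx, a kinase of arterial endothelium, was at 0.204, 0.139 and 0.205 CPM against 1.54, 2.06 and 1.57 CPM (3.09 ± 0.32, SE, edgeR, adjusted p = 0.000182). Gja4, which encodes connexin 37, gave 1.74 ± 0.21 (SE, edgeR, adjusted p = 0.000448). Nr2f2, a factor of venous identity that mesenchyme and epithelia also express, was higher in the cochlea, at 86.5, 104 and 109 CPM against 39.1, 43.8 and 32.2 CPM (-1.51 ± 0.15, SE, edgeR, adjusted p = 0.000161). So were Unc5b (-1.42 ± 0.19, SE, edgeR, adjusted p = 0.000681), Hey1 (-0.89 ± 0.16, SE, edgeR, adjusted p = 0.00375) and Hey2 (-0.81 ± 0.19, SE, edgeR, adjusted p = 0.0149). Hey2 lost its call in 4 alternatives. The remaining call in the vestibule was Notch4 (1.37 ± 0.28, SE, edgeR, adjusted p = 0.00642). The calls thus did not divide the list into arterial and venous genes. Gja5 and Bmx were below 1 CPM in each cochlear library and passed the filter only through the vestibule, where they are high, so their calls are no support for a direction of the list. The number called in the vestibule was 2 without vestibule replicate 1, 2 or 3, since these 2 genes then no longer passed the filter.

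Among 9 genes of barrier capillaries, 2 were called in each direction, beside 15.8% and 11.6% of all genes, and the median log2 fold change was 0.38. With 9 genes in the list, 2 calls in a direction are too few to set apart from the shares of all genes. The transporters Slco1a4 (3.24 ± 0.36, SE, edgeR, adjusted p = 0.000254) and Abcb1a (2.24 ± 0.29, SE, edgeR, adjusted p = 0.000576) were higher in the vestibule. Foxf2, a transcription factor of pericytes and of mesenchyme, was higher in the cochlea at 66.6, 70.6 and 78.3 CPM against 6.33, 7.98 and 7.42 CPM (-3.43 ± 0.16, SE, edgeR, adjusted p = 4.98e-06). Slco1c1, a carrier of thyroid hormone, gave -1.08 ± 0.28 (SE, edgeR, adjusted p = 0.0222), a call lost in 5 of 12 alternatives, among them those without cochlea replicate 1 (edgeR, adjusted p = 0.0536), vestibule replicate 2 (0.0917) or vestibule replicate 3 (0.0671). Without these 3 libraries in turn, 1 gene of the list was called in the cochlea.

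Of 6 genes of lymphatic endothelium 5 were tested, 2 were called in each direction, beside 15.8% of all genes in the vestibule and 11.6% in the cochlea, and Pdpn was listed at 0 in all libraries. Whether RNA of Pdpn was absent or its reads were not counted was not tested. Lyve1, which lymphatic endothelium shares with some macrophages, was at 3.02, 4.62 and 2.05 CPM in the cochlea and 42.4, 42.4 and 42.6 CPM in the vestibule (3.58 ± 0.29, SE, edgeR, adjusted p = 4.53e-05). Ccl21a, a chemokine of lymphatic endothelium with near-identical copies in the mouse genome, was at 2.08, 1.87 and 1.85 CPM in the cochlea and 0.0297, 0.156 and 0.0785 CPM in the vestibule. It passed the filter only through the cochlea, and its value is uncertain because reads may be split between copies. The vestibular levels rest on 1, 4 and 2 counts, so the fitted size of its change depends on the prior count (-4.58 ± 0.43, SE, edgeR, adjusted p = 0.000107). Prox1, the factor of lymphatic fate that supporting cells of the inner ear also use, gave -0.89 ± 0.16 (SE, edgeR, adjusted p = 0.00337). Flt4, described above, was the other call in the vestibule. The list kept 1 call in the vestibule without cochlea replicate 1, cochlea replicate 2 or vestibule replicate 1, and 1 in the cochlea without any 1 of the cochlear libraries.

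Mural cells wrap the endothelium, and 9 of 14 tested genes of pericytes and smooth muscle were called higher in the vestibule and 3 in the cochlea, beside 15.8% and 11.6% of all genes, with a median log2 fold change of 1.001. The list summed to 427 to 586 CPM in the cochlea and 605 to 721 CPM in the vestibule. The smooth muscle genes Myh11 (2.57 ± 0.55, SE, edgeR, adjusted p = 0.00853), Acta2 (1.66 ± 0.35, SE, edgeR, adjusted p = 0.00748) and Tagln (1.55 ± 0.23, SE, edgeR, adjusted p = 0.00119) were low throughout, with no library above 9.46 CPM. Myh11, at 0.204, 0.660 and 0.616 CPM in the cochlea and 4.81, 3.89 and 1.22 CPM in the vestibule, passed the filter only through the vestibule and was not tested when vestibule replicate 1, 2 or 3 was left out. Anpep, a peptidase of pericytes and other cells, was at 25.5, 34.0 and 47.1 CPM in the cochlea and 128, 120 and 92.3 CPM in the vestibule (1.55 ± 0.22, SE, edgeR, adjusted p = 0.000923). The 3 genes called higher in the cochlea, named after their values were seen, were Des, which encodes the muscle filament protein desmin (-1.49 ± 0.33, SE, edgeR, adjusted p = 0.0096), Vtn, which encodes the matrix protein vitronectin (-0.98 ± 0.28, SE, edgeR, adjusted p = 0.0304), and the receptor gene Notch3 (-0.81 ± 0.23, SE, edgeR, adjusted p = 0.0302). Des kept its call in every alternative, while Vtn and Notch3 each lost theirs in 6, with an adjusted p of edgeR of up to 0.126 for Vtn without vestibule replicate 2 and 0.104 for Notch3 without vestibule replicate 2. Calls without 1 library numbered 5 to 8 in the vestibule for this list, with the lowest number without vestibule replicate 1 and without vestibule replicate 3. The number called in the cochlea was 1 without cochlea replicate 2, vestibule replicate 2 or vestibule replicate 3.

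Genes of blood cells were measured beside the endothelial ones, since blood travels with vessels. None of the 6 tested red blood cell genes of 8 with a row was called by edgeR or DESeq2, 0 had an unadjusted p under 0.05, and the list summed to 294 to 739 CPM in the cochlea and 477 to 640 CPM in the vestibule. Its genes of highest level were the globins Hbb-bs, at 329, 186 and 140 CPM in the cochlea and 229, 299 and 247 CPM in the vestibule, and Hba-a1, at 193, 69.4 and 72.2 CPM and 143, 159 and 120 CPM. Cochlea replicate 1, the highest cochlear library for 7 of the 10 endothelial genes, was the highest of all 6 libraries for both globins. Without it 3 genes of the list were called higher in the vestibule. Of 7 platelet genes 3 were tested and 2 called higher in the vestibule, beside 15.8% of all genes, the chemokine gene Pf4, which macrophages share (3.21 ± 0.22, SE, edgeR, adjusted p = 1.91e-05), and the integrin gene Itga2b (1.73 ± 0.22, SE, edgeR, adjusted p = 0.000586). The list summed to 9.93 to 14.5 CPM in the cochlea and 65.2 to 90.6 CPM in the vestibule, where Pf4 held most of the vestibular sum. Gp1ba, tested and not called, was at 1.06, 2.29 and 3.18 CPM in the cochlea and 3.71, 2.88 and 2.12 CPM in the vestibule. Of the untested genes Ppbp was at 0.0409, 0.208 and 0.171 CPM against 0.654, 1.79 and 2.12 CPM, and Gp9, Gp6 and Treml1 did not exceed 0.156 CPM in any library. All 12 macrophage genes were called higher in the vestibule, beside 15.8% of all genes, among them Mrc1 (2.88 ± 0.13, SE, edgeR, adjusted p = 4.98e-06), C1qc (2.05 ± 0.17, SE, edgeR, adjusted p = 4.92e-05), C1qb (2.04 ± 0.17, SE, edgeR, adjusted p = 5.79e-05) and Tyrobp (1.94 ± 0.19, SE, edgeR, adjusted p = 0.000153), and the list summed to 135 to 160 CPM and 605 to 664 CPM.

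Genes of other cell types are given by their counts, to be read beside the 15.8% of all genes called higher in the vestibule and the 11.6% called higher in the cochlea. Of 11 mesenchyme genes 4 were called higher in the vestibule and 2 in the cochlea, and they summed to 5285 to 6000 CPM in the cochlea and 8138 to 9371 CPM in the vestibule. All 5 melanocyte genes were called higher in the vestibule (31.0 to 60.0 CPM and 272 to 336 CPM in sum), as were 4 of 6 Schwann cell genes (215 to 436 CPM and 699 to 1181 CPM) and 5 of 9 hair cell genes (572 to 803 CPM and 1026 to 1334 CPM). Of 8 supporting cell genes, 5 were called higher in the cochlea and 1 in the vestibule, summing to 8795 to 12020 CPM and 2973 to 3294 CPM. Of 6 neuron genes 3 were called higher in the cochlea, summing to 274 to 605 CPM and 164 to 369 CPM, ranges that overlap. Of the 6 skeletal muscle genes 4 were tested and none was called by edgeR or DESeq2, 1 had an unadjusted p under 0.05, and their sum ran from 3.76 to 237 CPM in the cochlea and from 6.56 to 23.2 CPM in the vestibule. With 1 library left out, the hair cell genes higher in the vestibule numbered 3 without cochlea replicate 1 or vestibule replicate 2, and the melanocyte genes 3 without any 1 vestibular library. In the cochlea, the supporting cell genes numbered 3 without cochlea replicate 1 or 2, the neuron genes 1 without cochlea replicate 1, cochlea replicate 2 or vestibule replicate 3 and 5 without cochlea replicate 3, and the mesenchyme genes 1 without any 1 library. Without cochlea replicate 3, 1 skeletal muscle gene was called higher in the vestibule. The melanocyte genes Tyrp1 and Mlana passed the filter only through the vestibule and the supporting cell gene Hes5 only through the cochlea, the organ where each was high, so their calls add no support to the counts of their lists. The tissue label of a sensory epithelium was met by hair cell and supporting cell genes in every library. The part of these other cells in the endothelial differences was not tested.

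**Figure D5:**
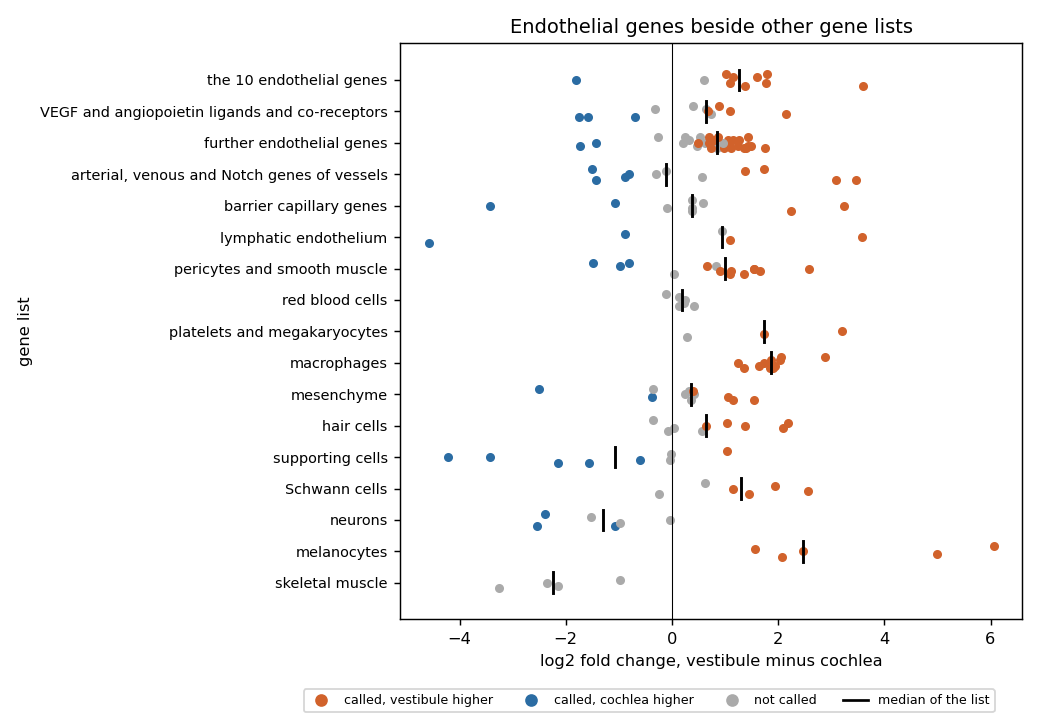
Log2 fold change, vestibule minus cochlea, of each tested gene (1 point per gene, colour by call, from edgeR with n = 3 per tissue) in 17 gene lists, with a black bar at each list's median. The 10 endothelial genes have a median of 1.26, the wider endothelial list 0.86, the macrophage list 1.87 and the red blood cell list 0.18.

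To find genes with a like pattern, the distance of each tested gene's profile to the mean profile of the 10 genes was taken as a root mean square of centred log2 CPM over the 6 libraries. The smallest distances outside the 10 were those of Slc38a5 (0.070), a glutamine carrier known from brain endothelium and other cells, Abcc9 (0.084), a channel subunit of pericytes, Trim14 (0.119), Nrros (0.133) and Sox17 (0.136), a transcription factor of arterial endothelium, against a median of 0.706 over all genes. Among the 10 themselves, Cdh5 (0.119) and Tie1 (0.161) lay nearest to the mean and Kdr (1.19) and Emcn (1.53) farthest from it. Abcc9, the better measured of the nearest pair, was at 14.6, 10.3 and 13.4 CPM in the cochlea and 42.5, 29.1 and 35.2 CPM in the vestibule, and Slc38a5 had means of only 0.781 and 1.90 CPM and Trim14 of 0.466 and 1.29 CPM. These 2 genes passed the filter only through the vestibule, and Slc38a5 lost its call without cochlea replicate 2 (edgeR, adjusted p = 0.0685). All 6 points of a profile share the libraries and their depth, so these distances are a description.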

How the data were processed

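The deposited counts are read pairs per Ensembl gene, which the authors obtained with TopHat2 2.1.0 on GRCm38 and HTSeq 0.5.4p5 (versions per the labels), from a stranded mRNA kit. The strand setting of the counting is not given in the sources used here. A matrix of log2 RPKM was deposited by the authors too. For all 12530 genes with enough counts it matched the counts scaled by library size within 5%. Lines of the count files that name no gene, 18.5% to 20.6% of the listed counts, stayed out of library sizes and tests.

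The quasi-likelihood test of edgeR 4.0.16 (R 4.3.3) was run on genes with at least 1 CPM in 3 libraries (TMM scaling, Benjamini-Hochberg adjustment, FDR 0.05), with no replicate block. Alternatives were RLE scaling, library size alone, no filter, DESeq2 1.42.0, edgeR's exact test, a replicate block and leaving out each library. Profiles used a prior count of 0.5. The 10 genes and all lists were chosen with earlier results of these data known. Named were the 10 genes, all ligands and partners, the 5 genes nearest in profile, and in other lists the 4 largest called changes or, with no call, the 2 highest genes. S1pr1, Des, Vtn, Notch3, Notch4, Unc5b, Hey1, Hey2 and the untested or uncalled platelet genes were named after their values were seen. So were the genes of the wider endothelial list that lost their call with a replicate block. Of 7 lists of cells outside vessels and blood only counts and sums are given. Coordinates come from GENCODE vM21, not from the authors' Ensembl release. Python 3.11.15 with matplotlib 3.10.9 drew the figures. The result of 1 gene is not reported here.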

Additional observations from a re-analysis of the deposited data

How the results depend on the processing

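Of the 10 endothelial genes, 6 kept their call in all 12 alternatives, namely Pecam1, Cdh5, Kdr, Emcn, Esam and Vwf, with log2 fold changes of 3.46 to 3.72 for Kdr and -1.88 to -1.69 for Emcn. Tek was never called, and none of the 10 changed direction. Flt1, Tie1 and Cldn5 lost their call only when a library was left out, which leaves 2 libraries in an organ. The count of members higher in the vestibule was 8 in every alternative with all libraries and ran from 6 to 8 with 1 library left out. The ratio of their summed CPM was 2.22, and it was 1.43 without Kdr. With 1 library left out it ran from 1.996 to 2.39, the count of all genes from 1342 to 2694 in the vestibule and from 925 to 1863 in the cochlea, the ligands and partners in the vestibule from 2 to 6, the wider endothelial list from 13 to 20, and the arterial, venous and Notch list from 2 to 4. Pairing of the replicate numbers was checked by the correlation of deviations from the organ means. It was -0.18, -0.26 and -0.48 for equal numbers and reached 0.41 for cochlea replicate 3 with vestibule replicate 2. No library correlated best with the one of its own number. Deviations within an organ are tied to each other, so this check cannot show whether libraries share mice or a day. With a replicate block, 1609 genes were higher in the vestibule and 1009 in the cochlea, in place of 2325 and 1711, and 2 in place of 4 of the ligands and partners in the vestibule and 2 in place of 3 in the cochlea, while the calls of the 10 genes stayed. In the wider endothelial list Eng, Sox18, Icam2, Ramp2, Rasip1, Nostrin and Lmo2 lost their call with the block, while others gained a call. Icam2 lost its call in 10 of the 12 alternatives and Nostrin in 8. Among genes that were not called, the log2 fold change of Hbb-bs ran from -0.12 without cochlea replicate 3 to 0.52 without cochlea replicate 1. That of Hba-a1 was -0.022 without cochlea replicate 3 and -0.012 without cochlea replicate 2, and it was called at 0.85 without cochlea replicate 1. That of Gp1ba ran from -0.051 without cochlea replicate 1 to 0.62 without cochlea replicate 3. The cause of these changes was not tested beyond the smaller number of libraries. Among the genes limited by depth, Gja5, Bmx, Myh11, Tyrp1 and Mlana were below 1 CPM in each cochlear library and Ccl21a and Hes5 in each vestibular one, and Slc38a5 and Trim14 were low in both organs.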

Other observations

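Genes with profiles nearest to Kdr and to Emcn alone were looked up after their values were seen. Nearest to Kdr by the same distance were Cldn24 (0.139), Tcte1 (0.176), Serpina3n (0.184) and Trim30d (0.186), against a median of 1.82 over all genes. These 4 genes had cochlear means of 0.659, 0.297, 0.448 and 0.553 CPM and vestibular means of 8.78, 3.58, 5.82 and 6.14 CPM, so they passed the filter only through the vestibule. Nearest to Emcn were Prkaa2 (0.075), Gpr27 (0.104), Dkk3 (0.119), Fam102b (0.122) and Snap91 (0.123), against a median of 0.941, and none of these belongs to the endothelial lists used here. Dkk3, which encodes a secreted protein of the Dickkopf family, had mean levels of 611 CPM in the cochlea and 207 CPM in the vestibule.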
